A study of Mus musculus with 2 samples.

Results

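The contactin genes, Cntn1 to Cntn6, encode neuronal adhesion proteins, and the data record where peaks of the histone mark H3K9me2 lay in and around them in embryonic mouse cortex. All 6 genes were found by symbol among the 21523 coding genes of the RefSeq table used, and a peak was assigned to a gene when it overlapped the gene body extended by 2 kb on both sides. The TBC1D3-transgenic list held 14 of its 6253 peaks in these genes, and the wild-type list held 1 of its 743. TBC1D3 is a hominoid gene carried in these mice as a transgene, and the series title pairs it with the H3K9 methyltransferase G9a. Both groups were cortex of C57BL/6 embryos at embryonic day 15.5, immunoprecipitated with an H3K9me2 antibody. There was 1 TBC1D3-transgenic and 1 wild-type library. The promoter that drives the transgene, the line and the number of embryos per library are not given in the sources used here.

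With no replicate of either genotype, no test between genotypes was made. The intervals are exact Poisson or exact binomial (Clopper-Pearson) 95% intervals and cover counting error only. The transgenic library had 20697113 ChIP tags and the wild-type library 26735120. The peak caller extended each tag to 111 bp in the transgenic library and to 57 bp in the wild-type library, so genotype cannot be told apart from depth and these settings.

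Contactins are immunoglobulin superfamily proteins that carry fibronectin type III domains and are held on the outer face of the membrane by a lipid anchor. Having no cytoplasmic part of their own, they act through partners on the same or the facing cell, and they are known for roles in axon growth, fasciculation, myelinated fibre organisation and synapse formation. Dimethylation of lysine 9 on histone H3 is associated with gene silencing. G9a and its partner GLP are major writers of the mark, which is known for wide domains over silent parts of the genome.

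No contactin start site held a peak in either library. RefSeq's promoter table (GRCm38.p6, the assembly that mm10 represents) lists 10 starts for the 6 genes, and 0 of them had a transgenic or a wild-type peak within 2 kb. Over all 32619 listed starts on the chromosomes used, the share with a peak within 2 kb was 0.536% in the transgenic list and 0.0644% in the wild-type list, so 0 of 10 is close to the background. The 250 bases before the first listed start of 4 genes are given here for the 3 genes with most transgenic peaks and for Cntn6, which had none, because the peaks lay far from them. Each runs 5′ to 3′ and capitals mark the dinucleotide CG, which reads the same on both strands.
Cntn1 (chr15:92050915-92051164, plus strand): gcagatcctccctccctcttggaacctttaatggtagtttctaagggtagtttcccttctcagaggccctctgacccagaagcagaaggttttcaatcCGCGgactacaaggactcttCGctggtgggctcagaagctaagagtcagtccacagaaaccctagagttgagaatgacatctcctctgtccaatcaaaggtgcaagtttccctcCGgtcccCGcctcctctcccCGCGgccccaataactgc
Cntn4 (chr6:106118515-106118764, plus strand): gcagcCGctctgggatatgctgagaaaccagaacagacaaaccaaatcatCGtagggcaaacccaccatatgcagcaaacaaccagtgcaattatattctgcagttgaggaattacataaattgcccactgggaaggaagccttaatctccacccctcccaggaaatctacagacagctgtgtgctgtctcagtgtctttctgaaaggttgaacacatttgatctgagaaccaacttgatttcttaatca
Cntn5 (chr9:10904776-10905025, minus strand): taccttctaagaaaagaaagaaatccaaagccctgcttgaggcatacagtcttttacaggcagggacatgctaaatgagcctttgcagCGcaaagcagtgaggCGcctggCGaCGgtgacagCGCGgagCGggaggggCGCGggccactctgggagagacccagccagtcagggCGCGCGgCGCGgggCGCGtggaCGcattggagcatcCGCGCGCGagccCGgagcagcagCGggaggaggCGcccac
Cntn6 (chr6:104492794-104493043, plus strand): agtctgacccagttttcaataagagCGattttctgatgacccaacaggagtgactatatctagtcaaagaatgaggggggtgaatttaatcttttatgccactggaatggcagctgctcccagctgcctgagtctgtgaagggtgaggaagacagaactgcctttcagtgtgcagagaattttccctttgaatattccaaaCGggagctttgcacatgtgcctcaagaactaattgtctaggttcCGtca

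The 4 windows differ in CG content. Cntn5 held 24 CG dinucleotides in its 250 bases (GC content 64.8%), and 12.0% of all promoter windows of that length held as many. Cntn1 held 7, as many or more being found in 46.3% of windows. Cntn6 held 3 and the first Cntn4 window 2, and 71.0% and 81.2% of all windows held as many or more. The window before the second Cntn4 start, which is not printed, held 12, and 33.5% of windows held as many. The median window in the table held 6 CG. The nearest transgenic peak lay 20.7 kb from this Cntn1 start, 136 kb from the Cntn5 start, 253 kb from the Cntn6 start and 381 kb from the Cntn4 start. The peak nearest to the Cntn1 start lay before it, outside the gene. Windows with many and with few CG alike had no peak within 2 kb. With a transgenic peak at only 0.536% of all listed starts, these windows cannot show whether CG content and peaks are related.

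Transgenic peaks lay in 4 of the 6 genes, Cntn4, Cntn1, Cntn5 and Cntn3, and in neither Cntn2 nor Cntn6. A transgenic peak was present in 5.69% of all coding genes, and in 51.7% of the 990 coding genes of 200 kb or more. Since 5 contactin genes are that long, 4 of 5 is nearer in length to the 51.7% than to the 5.69%. The 51.7% is still not matched in length. Cntn4 and Cntn5 exceed 1 Mb, and 94.9% of coding genes of 1 Mb or more held a transgenic peak. The single wild-type peak lay in Cntn4, and wild-type peaks were present in 0.911% of all coding genes and 11.7% of those of 200 kb or more. The share of genes with a peak was thus higher among these long genes than among all coding genes in both lists.

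**Figure D1:**
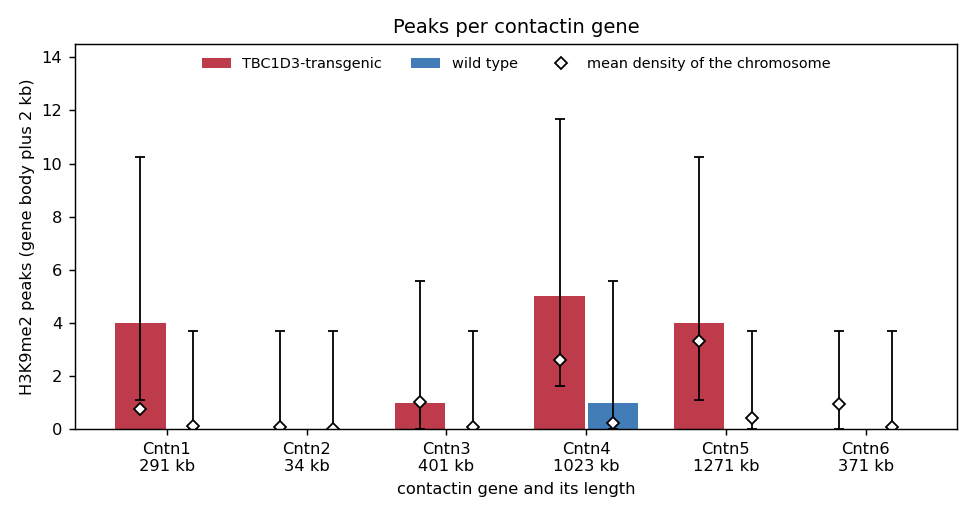
Number of H3K9me2 peaks (y axis) in each contactin gene body plus 2 kb (x axis, with gene length) in the 1 TBC1D3-transgenic and the 1 wild-type library. Bars are counts, error bars are exact Poisson 95% intervals and diamonds are the counts that the mean density of the gene's chromosome gives. Cntn1 is the gene whose interval (1.09 to 10.2) lies above its diamond (0.771). It was the highest of 6 genes in peaks per Mb, which the interval does not allow for. With peaks within 10 kb merged, its interval (0.619 to 8.77) includes the mean-density value (0.713).

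Cntn1, also known as F3 or contactin, is required with Cntnap1 for the paranodal junctions beside nodes of Ranvier. It spans 291 kb of the plus strand (chromosome 15, 92051152 to 92341967, GRCm38) and held 4 transgenic peaks (95% interval 1.09 to 10.2) and 0 wild-type peaks. The mean densities of chromosome 15 give 0.771 transgenic and 0.126 wild-type peaks over that length. Cntn1 therefore had more transgenic peaks than its chromosome's mean gives by more than counting error, although it was the highest of 6 genes and the interval does not allow for that. Its 13.6 transgenic peaks per Mb were reached by 0.808% of coding genes of 200 kb or more, Cntn1 included.

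The 4 Cntn1 peaks fell into an upstream and a downstream group. The peak with most fragments of all 15 contactin peaks, at chromosome 15, 92145821 to 92145931, rested on 8 fragments (fold 4.29, q 0.0873) and lay between the second and the third listed start. A peak of 6 fragments lay 37.4 kb before it, at 92108278 to 92108388 (fold 3.34, q 0.238). The other 2 lay 7.21 kb and 6.02 kb before the 3′ end of the gene, with 6 fragments (fold 3.54, q 0.212) and 5 fragments (fold 3.09, q 0.319). These 2 peaks stood 1.06 kb apart. When peaks within 10 kb were merged, an alternative chosen after seeing the data, Cntn1 had 3 transgenic peaks with an interval of 0.619 to 8.77, which includes the 0.713 that the merged list gives. Its merged density was reached by 1.41% of coding genes of 200 kb or more. The merged count of 3 was still above the mean. Only whether the interval excluded the mean depended on counting that pair as 2 peaks. At a −log10 p of at least 5 Cntn1 kept 1 peak, where 0.257 would be given.

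Cntn4, known as BIG-2 and a binding partner of the amyloid precursor protein App, was the contactin gene with most peaks. It spans 1023 kb of the plus strand (chromosome 6, 105677632 to 106700141) and held 5 transgenic peaks (1.62 to 11.7) and 1 wild-type peak (0.0253 to 5.57). The mean densities of chromosome 6 give 2.61 transgenic and 0.224 wild-type peaks, and both intervals include these values. Among the 59 coding genes of 1 Mb or more, 94.9% held a transgenic and 39% a wild-type peak. At least 5 transgenic peaks were found in 37.3% of them, so the number itself is common at this length.

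The Cntn4 peaks were among the stronger contactin peaks. Of the 5 transgenic peaks, 4 rested on 7 fragments and had a −log10 p above 5, with folds of 4.34, 4.12, 4.03 and 4.12 from the 5′ to the 3′ end. The remaining peak rested on 5 fragments (fold 3.25). Among the other contactin genes only the 8-fragment peak of Cntn1 reached a −log10 p of 5. At that limit 4 peaks in Cntn4 (1.09 to 10.2) stood against 0.910 from the chromosome's mean at the same limit. Of the 59 coding genes of 1 Mb or more, 10.2% held at least 4 such peaks, and of the 990 of 200 kb or more, 0.808% did. Cntn4 was singled out for this count after its values were seen.

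Within Cntn4 the first 2 transgenic peaks, at 105716923 to 105717033 (q 0.0895) and 105738024 to 105738142 (q 0.105), lay 21.0 kb apart near the 5′ end of the longest gene model. Both lay before the 2 starts in the promoter table, by 402 kb and 381 kb from the first of these. The other 3 lay 399 kb, 402 kb and 549 kb after that start, and the pair at 106518100 to 106518307 and 106520859 to 106520980 stood 2.55 kb apart. Between the upstream pair and these peaks lay 780 kb of Cntn4 without a transgenic peak. The wild-type peak, at 106480046 to 106480128, rested on 5 fragments (fold 3.65, q 1) and lay 38.0 kb from the nearest transgenic peak. No contactin peak of one list overlapped a peak of the other. With a single wild-type contactin peak this says little about these genes. The share of overlapping peaks over the whole lists was not computed.

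**Figure D2:**
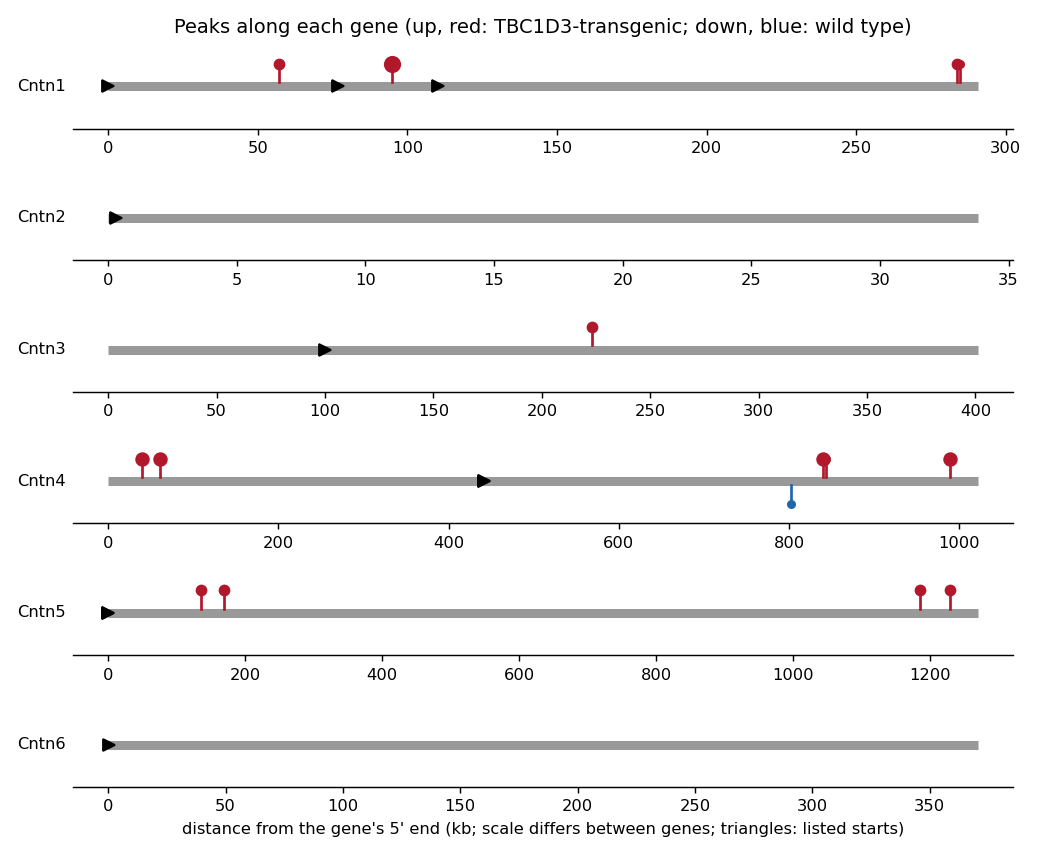
Position of each peak along the 6 contactin genes, as distance of the summit from the 5′ end of the gene body (x axis, kb, on a separate scale per gene). Red points above the line are TBC1D3-transgenic peaks, blue points below it are wild-type peaks, larger points rest on more fragments (5 to 8) and triangles mark listed starts. Transgenic peaks lie at 3.85% to 32.6% or 82.2% to 97.9% of the body in Cntn1, Cntn4 and Cntn5, and at 55.6% in Cntn3.

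Cntn5, known as NB-2 and expressed in the auditory pathway, is the longest of the 6 at 1271 kb on the minus strand (chromosome 9, 9634223 to 10904775). It held 4 transgenic peaks (1.09 to 10.2) against 3.32 from the mean of chromosome 9, and 0 wild-type peaks against 0.441. Both counts were thus close to what length alone gives, and 47.5% of coding genes of 1 Mb or more held at least 4 transgenic peaks. All 4 peaks rested on 6 fragments, with folds from 3.34 to 3.80. They formed pairs at the ends of the gene. The first pair, at 10768538 to 10768715 and 10735408 to 10735518, lay 136 kb and 169 kb after the first listed start, 33.0 kb apart, and the peak at 10735408 overlapped Gm7529. The second pair, at 9719510 to 9719620 and 9676155 to 9676294, lay 85.3 kb and 42.0 kb before the 3′ end. The 1016 kb between the pairs held no transgenic peak. Of 6233 stretches between neighbouring transgenic peaks, 8.70% were at least as long, and 13.7% were at least as long as the empty stretch inside Cntn4. These shares count each stretch once, although long stretches cover more of the genome. The median stretch was 219 kb.

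Measured along the gene body from the 5′ end, the 13 transgenic peaks of Cntn1, Cntn4 and Cntn5 lay at 3.85% to 32.6% or at 82.2% to 97.9% of its length. The single Cntn3 peak lay at 55.6%, in the middle of that gene. These positions are a description and have no test.

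Cntn3, known as BIG-1 or PANG, spans 401 kb on the minus strand (chromosome 6, 102163304 to 102564614). It held 1 transgenic peak, at 102341584 to 102341694, with 6 fragments, a fold of 3.73 and a q of 0.168. The chromosome's mean gives 1.03 for this length. The peak lay 123 kb after the listed start and overlapped no other gene of the table. Cntn3 held 0 wild-type peaks, and the nearest lay 92.4 kb from the gene body.

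Cntn6 and Cntn2 held no peak in either library. Cntn6, known as NB-3 and a partner of the adhesion molecule Chl1, spans 371 kb of the plus strand (chromosome 6, 104492662 to 104863406). At its chromosome's mean it would hold 0.954 transgenic and 0.0818 wild-type peaks, and the interval for a count of 0 reaches 3.69. Cntn2, known as TAG-1 and carried by early growing axons, spans 33.8 kb on the minus strand (chromosome 1, 132509425 to 132543251), for which the mean density gives 0.102 and 0.00846. A lack of peaks was therefore not detectable in either gene. The transgenic peak nearest to the gene body lay 99.4 kb from Cntn6 and 234 kb from Cntn2.

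Summed over the 6 genes and their flanks, 3.41 Mb in all, 14 transgenic peaks (7.65 to 23.5) stood against 8.79 from the chromosome means, and 1 wild-type peak (0.0253 to 5.57) against 0.969. Both intervals include the mean-density value. The order of the genes by transgenic peaks per Mb was Cntn1 (13.6), Cntn4 (4.87), Cntn5 (3.14) and Cntn3 (2.47), with Cntn2 and Cntn6 at 0. At least as many per Mb were held by 14.3% of coding genes of 200 kb or more for Cntn4, by 33.5% for Cntn5 and by 39.9% for Cntn3. Each neighbour in that order had an interval that overlapped the next, since the interval of Cntn1 ran from 3.70 to 34.7 and that of Cntn4 from 1.58 to 11.4. The median of the 5 genes of 200 kb or more was 3.14 peaks per Mb, the value of Cntn5, beside 1.15 over all 990 genes of that length. Many of the 990 held no peak, and the median over genes of 1 Mb or more was 2.69. Pooled over genes, the densities were 4.15 per Mb for the 5, 2.54 for the 990 and 3.01 for the genes of 1 Mb or more. In the wild type these medians were all 0.

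**Figure D3:**
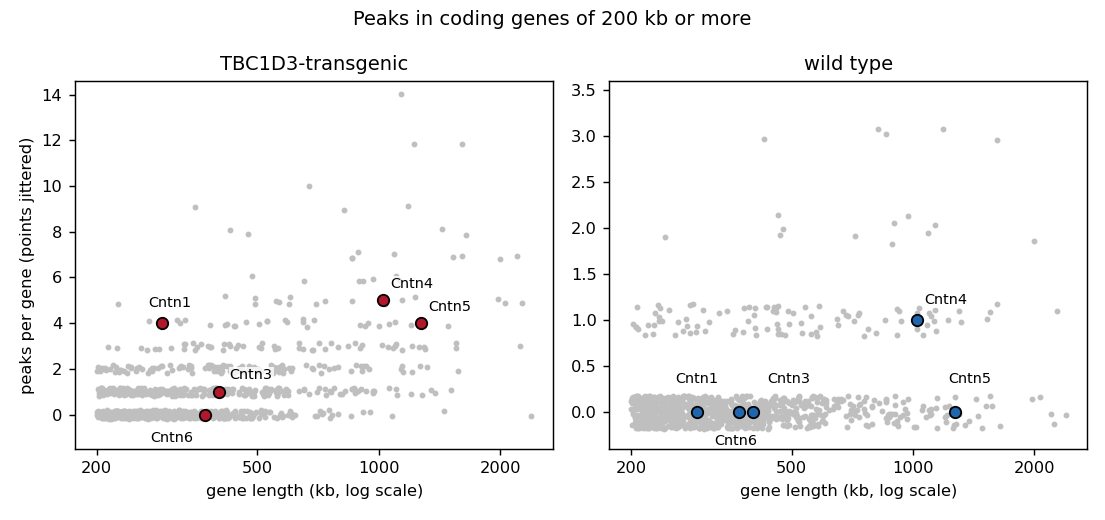
Peaks per gene (y axis, body plus 2 kb) against gene length (x axis, kb, log scale) for 990 coding genes of 200 kb or more, in the TBC1D3-transgenic library (left) and the wild-type library (right). Grey points are all such genes, jittered, and large points are the 5 contactin genes of that length. Cntn1 has 4 transgenic peaks in 291 kb, Cntn4 has 5 in 1023 kb, and Cntn2 (33.8 kb) is not shown.

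The transgenic list supplied 93.3% of the 15 contactin peaks (95% interval 68.1 to 99.8) and 89.4% of the 6996 peaks of both lists. The balance of the lists over the contactin genes thus did not differ from that of the whole lists beyond counting error.

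In strength the contactin peaks were ordinary members of their lists. The 14 transgenic peaks had a median of 6 fragments (range 5 to 8) and a median fold of 3.64 (3.09 to 4.34), beside a median of 6 fragments and a median fold of 3.62 over all transgenic peaks. Their q ran from 0.0873 to 0.319, and 2 of the 14, or 14.3%, had a q of 0.1 or less, beside 23.1% of the whole list. The lowest q of any peak was 0.0673 in the transgenic list and 0.136 in the wild-type list. Being ordinary members of lists called at this level does not make the peaks well established sites. None had a fold of 5 or more. Only 166 of the 6253 peaks of the whole list did, so 0 of the 14 contactin peaks is close to that share. Their widths ran from 111 bp, the extension used in the call and the width of 7 of them, to 208 bp. These are sites of a few fragments each. The wide domains for which the mark is known were not sought, as the authors called peaks with broad calling turned off. The local background at the 14 peaks was 1.00 to 1.30 times the genome-wide background of the call. The fold, p and q of a peak are as the authors deposited them.

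**Figure D4:**
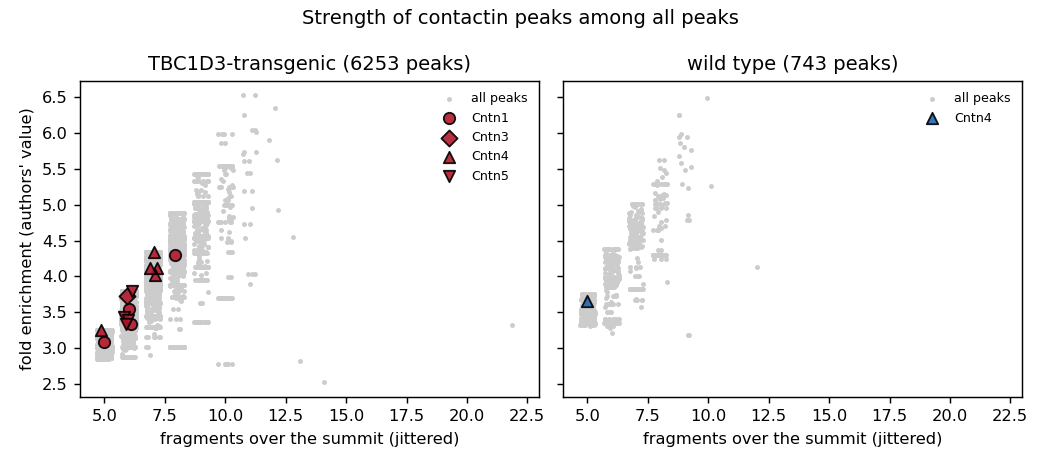
Fold enrichment as deposited by the authors (y axis) against the number of fragments over the summit (x axis, jittered) for all peaks (grey) and contactin peaks (coloured by library, with a marker per gene), in the TBC1D3-transgenic list (left) and the wild-type list (right). Contactin peaks lie between 5 and 8 fragments, while the whole transgenic list reaches 22 and the wild-type list 12.

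Cntn3, Cntn6 and Cntn4 lie in this order along chromosome 6, with Chl1 between Cntn3 and Cntn6. The neighbourhood was taken from 1 Mb before Cntn3 to 1 Mb after Cntn4 (101163304 to 107700141, 6.54 Mb). It holds 9 coding genes, Pdzrn3, Cntn3, Chl1, Cntn6, Cntn4, Il5ra, Trnt1, Crbn and Lrrn1. It held 18 transgenic peaks (10.7 to 28.4) against 16.6 from the mean density of the chromosome, and 2 wild-type peaks (0.242 to 7.22) against 1.43. The neighbourhood as a whole was thus at the level of its chromosome in both libraries.

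Of the 18 transgenic peaks, 6 lay in the 3 contactin genes, 5 of them in Cntn4. Their density was 3.32 per Mb inside the contactin genes (1.22 to 7.23) and 2.54 per Mb in the rest of the neighbourhood (1.31 to 4.43), so the values overlapped. Chl1, an L1-family adhesion molecule, held 2 transgenic peaks in 222 kb, with folds of 4.03 and 3.52, where the mean gives 0.576. The interval for a count of 2 (0.242 to 7.22) includes that value. Pdzrn3, which encodes a ubiquitin ligase with PDZ domains, held 1, with 8 fragments and a fold of 3.03. The remaining 9 lay between genes of the coding set. By interval, 2 lay before Cntn3 counting that of Pdzrn3, 2 between Cntn3 and Chl1, 2 between Chl1 and Cntn6, 3 between Cntn6 and Cntn4, and 1 after Cntn4.

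Cntn6 lay inside a stretch of 722 kb without a transgenic peak, and 15.5% of stretches in the transgenic list were at least as long. That share counts each stretch once. A stretch chosen because it holds a gene of this length is more often a long one, so the share makes it look rarer than it is. A longer stretch, of 963 kb, followed the last Cntn4 peak and took in Il5ra, Trnt1, Crbn (cereblon, a ubiquitin ligase receptor) and Lrrn1, none of which held a peak in either list. The wild-type peak outside Cntn4 lay before Cntn3, at 102070678 to 102070858, within 2 kb of the pseudogene Gm7924, with 6 fragments and a fold of 3.35.

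**Figure D5:**
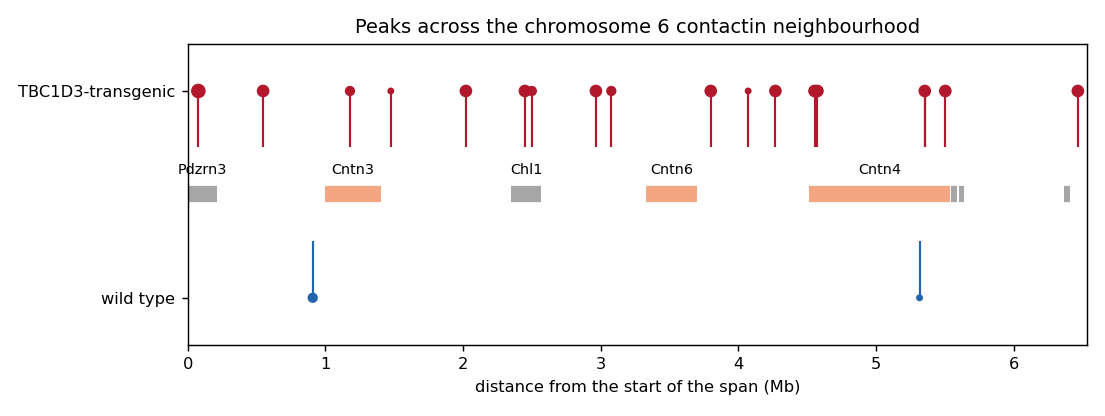
H3K9me2 peaks across the 6.54 Mb contactin neighbourhood of chromosome 6, as distance from its start (x axis, Mb), with TBC1D3-transgenic peaks above and wild-type peaks below and larger points for more fragments. Orange bars are Cntn3, Cntn6 and Cntn4 and grey bars other coding genes; the 18 transgenic peaks are spread along the span, with 5 in Cntn4 and 0 in Cntn6.

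Contactins act through partner proteins, and 13 genes of known partners were examined. A transgenic peak lay in 7 of the 13 and a wild-type peak in 2, beside 5.69% and 0.911% of all coding genes. Of the 7 partner genes of 200 kb or more, 6 held a transgenic peak, beside 51.7% of coding genes of that length, and 2 held a wild-type peak, beside 11.7%. These shares are not matched in length, as Cntnap2 alone spans 2241 kb. The 13 transgenic peaks over the list stood against 12.6 from the chromosome means, so the list as a whole was at the mean density, and the 2 wild-type peaks stood against 1.27.

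Among the receptor phosphatases that bind contactins, Ptprg held 3 transgenic peaks (folds 3.34 to 3.86) and 1 wild-type peak, and Ptprz1 held 1 and 0. The matrix protein gene Tnr held 2 transgenic peaks (folds 2.94 and 4.72) and 1 wild-type peak. Tnr and Ptprg were the partners with peaks in both lists, each with a wild-type peak of fold 3.83. Among the contactin-associated proteins on the list, Cntnap2 held 3 transgenic peaks where the mean gives 5.71, Cntnap4 held 1 and Cntnap1 held 0. Other genes of that family were not on the list. Of these, Cntnap5a held 2 transgenic peaks, Cntnap5c held 4, and Cntnap5b held 2 transgenic and 2 wild-type peaks. Among the L1-family genes, Nrcam held 1 transgenic peak (fold 4.53), Chl1 held 2 as above, and Nfasc and L1cam held 0. App, Aplp1 and Notch1 held no peak in either list.

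The coding genes of 100 kb or more closest to Cntn4 in peaks per Mb over the 2 lists were Astn2, Sgcd and Lrmda. Each held 5 transgenic peaks and 1 wild-type peak, over 1024 kb, 1018 kb and 1037 kb. Their distances from Cntn4 were 0.00592 to 0.0672 peaks per Mb. Cntn1 was closest to Lama4, Col26a1 and Mapre2, which held 2 transgenic peaks each over 142 kb to 145 kb and 0 wild-type peaks. Closest to Cntn3 were Csmd3, with 3 transgenic peaks, and Ntrk3 and Hivep3, with 1 each. Closest to Cntn5 were Adamts17, Med12l and the partner gene Cntnap4, with 1 transgenic peak each over 313 kb. The genes named for likeness rest on 1 to 5 transgenic peaks each.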

How the data were processed

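H3K9me2 ChIP-seq peaks were listed for 1 TBC1D3-transgenic and 1 wild-type cortex library, grouped by the genotype label. The authors called peaks in each library against its own input with MACS 2.1.0.20150420 at a p cutoff of 0.001, without a shift model, per the file headers. The submitters' processing notes name BWA and mm10. The deposited pileup signal counts extended fragments over the summit, after scaling of the larger of ChIP and input, as the headers state. Dividing the pileup by the ChIP scale (1 and 0.951) gave whole fragments within 0.02 for 100% of peaks. Fold enrichment, as deposited, divides the pileup plus 1 by the local background plus 1. The −log10 p-value and −log10 q-value deposited for a peak come from the caller and were used as listed, although the headers say that q was not calculated.

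Peaks were counted with Python 3.11.15, pandas 2.3.3 and scipy 1.17.1 on 49214 RefSeq genes (GRCm38.p6) on chromosomes 1 to 19 and X, at an overlap of at least 1 bp. The 340 genes that start within the first 3 Mb were left out. The counter was tested on simulated peaks. Mean density is the peaks on a chromosome over its length from 3 Mb to the last gene or peak. Genes named were the contactins, coding genes with peaks in the chromosome 6 span, partners with peaks, and, for each contactin with a peak, the 3 coding genes of at least 100 kb nearest in peaks per Mb. Partners without a peak, other coding genes of the span and Cntnap5a, Cntnap5b and Cntnap5c are named for completeness. The members and lists were chosen with earlier results of these data known. No genome was used here, so the sequences of the peaks are not shown.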

Additional observations from a re-analysis of the deposited data

How the results depend on the processing

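With 1 library per genotype no library could be left out, and the number of peaks called limits what these counts can show. No paired analysis was possible because each genotype has 1 library. Counting over gene bodies alone, with a 10 kb extension, by peak midpoint, or with peaks within 1 kb merged changed no count of contactin genes, contactin peaks or partner genes. Counting by peak midpoint or with peaks within 1 kb merged also changed no count of neighbourhood peaks, which does not use gene bodies. Merging within 10 kb and the alternatives for partner genes were chosen after seeing the data, and merging within 10 kb left 12 transgenic contactin peaks and 17 neighbourhood peaks. A fold of at least 5 left 166 of 6253 transgenic and 62 of 743 wild-type peaks. It left 0 in the contactin genes, the neighbourhood and the partners in both lists. A −log10 p of at least 5 left 2 contactin genes with 5 peaks, 9 neighbourhood peaks and 4 partner genes in the transgenic list, and 0 of each in the wild-type list. It kept 35.7% of the transgenic contactin peaks, close to the 32.6% of all transgenic peaks, and 24.9% of all wild-type peaks. The transgenic list, shortened from 6253 to its 743 peaks of lowest q, held 0 contactin peaks in 0 contactin genes and 0 neighbourhood peaks. It held a peak in 2 partner genes. So short a list would hold few contactin peaks in any case. These filters shorten the lists by construction. The share of all coding genes with a peak was not computed for the filtered lists.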
